A study of Mus musculus with 22 samples.

Results

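The step from the 2-cell embryo to the morula was examined in control mouse embryos, by RNA-seq. All genes of the deposited table that reached 1 FPKM in 3 or more of the 8 control libraries of these stages were taken, which gave 13655 of 55335 genes. The 8 libraries are 4 of 2-cell embryos and 4 of morulae, out of 22 in the series, and each was made from 15 pooled embryos. FPKM divide the fragments of a gene by its length and by the library's total, so genes of unequal length can be compared, but each value is a share of its library. The series also holds control blastocysts and embryos at all 3 stages after H2A.Z knockdown (KD) by siRNA injected into zygotes (20 µM, 10 pL).

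All embryos came from B6D2F1 females, superovulated with PMSG and then hCG, and mated with B6D2F1 males. They were collected as zygotes and cultured in vitro until harvest. Control 2-cell embryos were harvested 43 to 44 h after hCG injection (replicates 1, 2, 4 and 5) and control morulae at 78 h (replicates 1, 2, 7 and 8). Values per library are listed below in that order. The sources do not state whether the control embryos of these libraries were injected. Nothing states that libraries came from separate females or collection days, so the p-values below measure the spread between these pools, which may be technical. Libraries were prepared from polyadenylated RNA by Smart-seq2, with 16 to 18 cycles of amplification. No RNA of known amount was added as far as the sources state, so a total loss or gain of RNA per embryo cannot be seen, and fewer cells of a type cannot be told apart from less RNA per cell.

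The mouse zygote starts on proteins and mRNA stored by the oocyte, and the embryonic genome becomes strongly active at the 2-cell stage, in zygotic genome activation (ZGA). Maternal mRNA is cleared over the same period, and a short-lived group of 2-cell genes is transcribed and then silenced. By the morula the cells have compacted, formed junctions and polarity, and begun to differ into an outer layer, the future trophectoderm (TE), and an inner group that gives the inner cell mass (ICM).

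The 2 stages were far apart in every library. Over the genes tested, Pearson correlations of log2(FPKM + 1) were 0.963 to 0.981 between 2-cell libraries, 0.978 to 0.990 between morula libraries and 0.540 to 0.594 between stages. These are correlations across genes, which are not independent. Genes at 1 FPKM or more numbered 11622, 11684, 12090 and 11871 in the 2-cell libraries and 11174, 10509, 10579 and 10406 in the morula libraries. Every morula library was thus below every 2-cell library, with means of 11816.8 ± 210.7 and 10667 ± 345.4 (SD, n = 4 each; difference -1149.8, two-sided exact permutation test over 70 splits, p = 0.0286, the smallest that 4 against 4 allows). With a threshold of 5 FPKM the difference was -182.5 and its exact p was 0.2, while without any 1 library the groups stayed apart, with differences of -1318.8 to -1058.7. Over the 35 splits then left, an exact p for groups that do not overlap is either 0.0286 or 0.0571, and it was 0.0571 without 2-cell replicate 4 or 5. With the authors' cut-offs for active (FPKM above 1) and inactive (below 0.1) genes, 7154 genes were active in all 8 libraries. Of the others, 143 were inactive in every 2-cell library and active in every morula library, and 638 went the opposite way.

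Read numbers cannot be recovered from FPKM, so depth is unknown. A relative depth read from the steps between low values of single-exon genes was 229, 180.4, 275 and 272 at the 2-cell stage and 208, 209.6, 269 and 286 in morulae, in relative units. Libraries numbered 1 and 2 were shallower by this measure than those with higher numbers at both stages, so the measure did not follow the stage. The share of low values on whole steps, on which it rests, did, at 10.6 to 14.5% in 2-cell libraries and 16.5 to 18.6% in morulae. Markers of other cells that could adhere to embryos were low. Of 14 markers of cumulus and granulosa cells, 13 were below 1 FPKM in all 8 libraries and Fshr, Inha and Ptx3 were at 0. Their summed FPKM was 3.45, 1.59, 1.86 and 1.78 in 2-cell embryos and 0.221, 0.166, 0.321 and 0.204 in morulae, and the most abundant was Tnfaip6 at a mean of 1.68 in 2-cell embryos. It alone passed the filter, and it fell (log2 fold change -1.35, adjusted p = 3.87e-05), with every setting that tested it. The 10 markers of fibroblasts and oviduct or uterine stroma summed to 1.2 ± 0.194 and 0.27 ± 0.17, led by Ovgp1, with Col1a2, Col3a1, Lum and Pdgfrb at 0. The 9 markers of blood cells summed to 6.8 ± 0.741 and 6.2 ± 1.7, led by Hba-a1 and Cd68, with Hbb-bs and Hbb-bt at 0. Of the 9, 3 passed the filter and Cd68 rose, from 0.729 ± 0.418 to 2.51 ± 0.731 (log2 fold change 1.00, adjusted p = 0.00062), a call at the size threshold that was lost in libraries numbered 1 and 2 alone, with the replicate block, in a fit of all 22 libraries and without 2-cell replicate 2, 4 or 5 or morula replicate 7. The 7 markers of sperm summed to 0.72 ± 0.143 and 0.453 ± 0.253, led by Prm2, with Smcp at 0. The part these transcripts play in the changes below was not tested.

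With limma on log2 of scaled FPKM plus 1, differentially expressed genes (DEGs) were those that changed by more than 1 on the log2 scale, up or down, with adjusted p < 0.05. A fold change on this scale understates the change of genes near 0. Of 13655 genes, 4378 (32.1%) were upregulated and 4112 (30.1%) were downregulated in morulae, and these 8490 DEGs (62.2%) are the background for every list below. The median log2 fold change over all genes tested was 0.10. The size threshold rather than the p-value set the calls, since 8496 genes changed by more than 1 and 8490 of them passed the test. For 10546 of the 13655 genes (77.2%) the groups did not overlap. All morula libraries were higher for 40% of genes and lower for 37.2%, so such separation was common. Very large decreases were more numerous than very large increases: 82 genes fell and 19 rose by more than 6, while 1817 fell and 1966 rose by more than 2. In the 4 libraries numbered 1 and 2 alone there were 4458 up and 4068 down, and in the 4 with higher numbers 4527 and 3969. When every library was instead rescaled to the same sum (TPM), the median of all genes moved by -0.33 and the split became 4044 up and 5181 down. Without any 1 of the 8 libraries, 7704 of the 8490 DEGs (90.7%) were called in all 8 such fits.

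**Figure D1:**
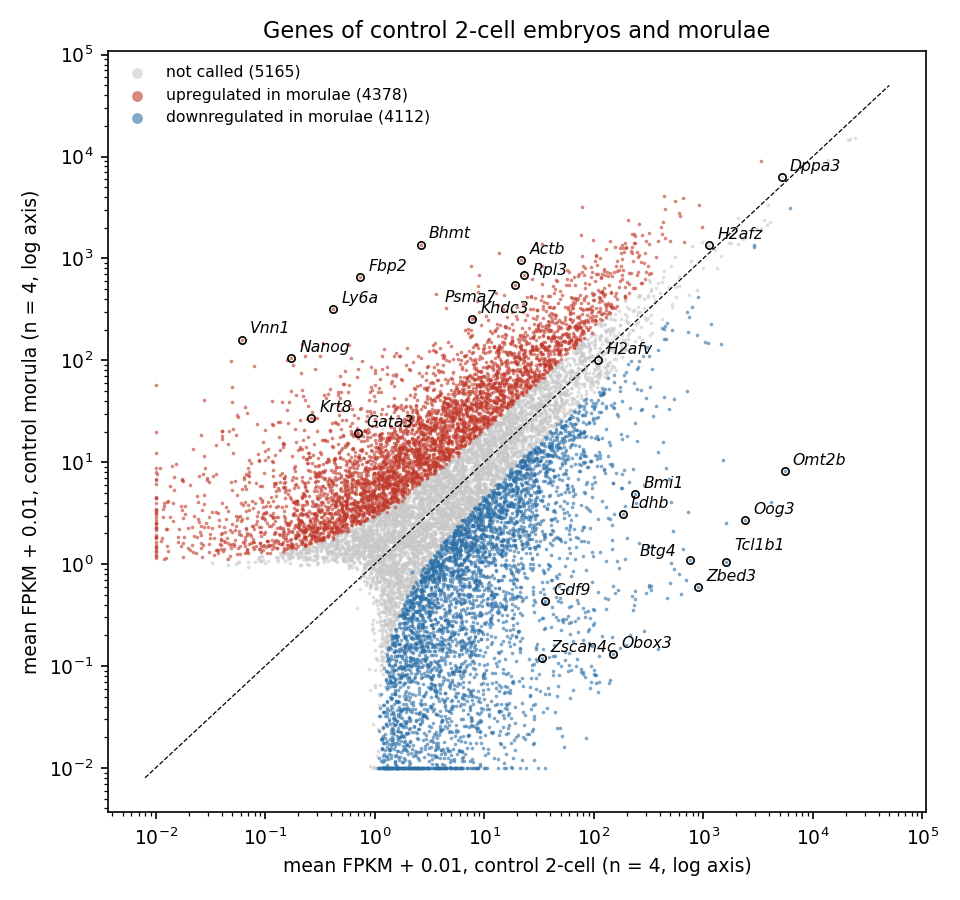
Mean FPKM of 13655 genes in control 2-cell embryos (x axis) and control morulae (y axis), n = 4 libraries each, with 0.01 added so that genes at 0 can be drawn on the log axes. Red points are the 4378 upregulated and blue points the 4112 downregulated genes, the dashed line marks equal levels, and genes of the oocyte such as Omt2b and Oog3 lie far below it while Bhmt and Fbp2 lie far above.

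The make-up of the libraries shifted accordingly. The 4112 downregulated genes held 30.6 ± 1.4% of the summed FPKM of 2-cell embryos and 3.81 ± 0.463% of that of morulae, while the 4378 upregulated genes held 16.3 ± 1.48% and 60.8 ± 0.632%, a description of genes chosen for these changes. Genes of the mitochondrial genome held 22.8, 27, 20.7 and 21.8% of the sum in 2-cell embryos and 13.3, 14.4, 14.6 and 13.4% in morulae (exact permutation test, p = 0.0286, and 0.0286 after adjustment over 3 such measures). The 10 most abundant genes of each library held 25.3 ± 3.36% at the 2-cell stage and 15.3 ± 1.29% in morulae, with the same exact p.

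Genes of the oocyte fell deeply. Of 27 oocyte genes listed, 25 passed the filter, 24 fell and 0 rose (limma; 0 were higher at an unadjusted p under 0.05), with a median log2 fold change of -4.66. Oog3, an oogenesin of the PRAME-like family (chromosome 4, 144157557 to 144162663 on GRCm38), stood at FPKM of 2533, 2417, 2212 and 2434 in 2-cell embryos and 2.6, 1.25, 3.52 and 3.42 in morulae. Its log2 fold change was -9.38 (SE 0.23, adjusted p = 2.85e-11), and every morula library was far below every 2-cell library. Oosp1 and Oosp3, which encode oocyte-secreted proteins, fell from means of 652 ± 110.1 to 1.39 ± 0.567 and from 499.8 ± 70.6 to 0.65 ± 0.302. Gdf9, the oocyte's growth factor for the follicle, stood at 34.1, 24.4, 42.1 and 43.7 in 2-cell embryos and 0.653, 0.55, 0.278 and 0.209 in morulae. Zp3, a protein of the zona pellucida, kept more of its mRNA, at 4.72 ± 1.52 in morulae against 40.1 ± 0.599, and the meiotic kinase gene Mos was low already at the 2-cell stage, at 1.53, 1.61, 2.27 and 1.03.

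Dppa3 was the exception among them. It protects the maternal genome from demethylation, and its FPKM of 6151, 6442, 3642 and 4583 in 2-cell embryos and 4673, 5961, 7097 and 7327 in morulae overlapped, with a log2 fold change of 0.28 (SE 0.27, adjusted p = 0.35). Among libraries numbered 1 and 2 the change was -0.38, and among those with higher numbers 1.03, so its direction followed the range of numbers. It was the most abundant of the 27 listed genes at both stages.

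The subcortical maternal complex, a protein assembly under the membrane of the egg, and the related NLRP genes showed the same fall with 1 clear exception. Of 14 members all passed the filter, 12 fell and 1 rose, with a median of -3.29. Zbed3 (chromosome 13, 95323612 to 95337841) stood at 866, 789, 1249.6 and 682 in 2-cell embryos and 0.157, 1.06, 0.703 and 0.414 in morulae and fell (log2 fold change -9.11, SE 0.22, adjusted p = 2.63e-11). Nlrp9c fell from 318 ± 29.8 to 0.611 ± 0.0994, Nlrp14 from 33.7 ± 8.59 to 0.287 ± 0.0543 and Nlrp5, a core member, from 11.3 ± 1.64 to 0.269 ± 0.102. The exception was Khdc3, also a core member, at 8.36, 11.6, 5.19 and 6.01 in 2-cell embryos and 323, 310.3, 204 and 173 in morulae. All its morula libraries were thus far above all 2-cell libraries (log2 fold change 4.84, SE 0.27, adjusted p = 9.65e-09). Ooep, which neighbours it in the complex, fell to a lesser degree, from 8.84 ± 2.15 to 2.68 ± 0.728, and its mean in control blastocysts was 36.5.

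Genes outside these lists headed the decreases as well. Omt2a and Omt2b, oocyte maturation genes that lie side by side on chromosome 9 and share sequence, so that reads may be split between them, fell from 4156 ± 777 to 4.09 ± 0.247 and from 5530.4 ± 1216 to 8.11 ± 0.824, with log2 fold changes of -9.65 and -9.22. The Tcl1 cluster on chromosome 12, whose founding member is a coactivator of the kinase AKT, fell as a whole. Tcl1 (chromosome 12, 105216750 to 105222793) stood at 2103, 1477, 1536 and 1317 in 2-cell embryos and 2.42, 1.32, 3.58 and 2.68 in morulae, and Tcl1b1 at 2045, 1824, 1425 and 1144 in 2-cell embryos and 0.82, 0.805, 1.23 and 1.29 in morulae. Tcl1b2 and Tcl1b3 fell from 701 to 0.688 and from 621 to 0.502 in mean FPKM. These paralogs are similar, so the value of each is less certain than that of the cluster, whose 6 members all fell.

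Factors of mRNA storage and clearance declined too. Of 26 maternal mRNA storage and clearance genes, 24 passed the filter, 19 fell and 0 rose (limma; 1 was higher at an unadjusted p under 0.05), with a median of -1.75. Btg4, the adaptor that brings the CCR4-NOT deadenylase to maternal mRNA, stood at 1067, 833, 902 and 198 in 2-cell embryos and 0.955, 0.563, 2.08 and 0.767 in morulae. Replicate 5 of the 2-cell embryos was far below the other 2-cell libraries, and still above every morula library (log2 fold change -8.27, SE 0.46, adjusted p = 1.12e-08). The deadenylase subunit gene Cnot6l fell from 28 ± 4.77 to 0.54 ± 0.0927, the RNA-binding gene Dazl from 27.1 ± 4.82 to 1.15 ± 0.172 and Zar1l, a partner in mRNA storage, from 19.5 ± 2.82 to 0.183 ± 0.107.

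The 2-cell genes of ZGA fell in large part. Of 30 listed, 28 passed the filter, 26 fell and 0 rose (limma; 1 was higher at an unadjusted p under 0.05), with a median of -3.39. Their summed FPKM went from 1660.5 ± 221 to 161 ± 40, where Sp110 was the most abundant, at a mean of 69.5. Zscan4c, a zinc finger gene of the cluster on chromosome 7 that marks the 2-cell state, stood at 36.6, 41.1, 27.9 and 29.3 in 2-cell embryos and 0.0882, 0.0457, 0.043 and 0.259 in morulae. Zscan4d stood at 42.3, 46, 41.3 and 32.5 in 2-cell embryos and 0, 0.0419, 0.515 and 0.373 in morulae. Both fell to near 0 (log2 fold change -4.92 and -5.04, adjusted p = 6.94e-10 and 7.16e-10), though reads of Zscan4 copies cannot be assigned with certainty. Zfp352, a retrotransposed zinc finger gene, stood at 112, 109, 86.7 and 79.8 in 2-cell embryos, and in morulae at 0.0869, 0.156, 2.81 and 2.16. Its higher morula values lay in replicates 7 and 8. Rfpl4b fell from 172 ± 58.8 to 0.907 ± 0.578 and the deubiquitinase gene Usp17lb from 146 ± 32.6 to 1.73 ± 0.725.

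The Obox homeobox genes of chromosome 7, maternal and early embryonic factors of ZGA, followed the same course. Of 11 Obox, Cphx and Crxos genes, 8 fell and 1 rose, with a median of -3.64. Obox3 stood at 178, 168, 118.2 and 133 in 2-cell embryos and 0.0713, 0.0558, 0.271 and 0.0881 in morulae, and Obox5 fell from 199 ± 45.5 to 0.151 ± 0.178. Obox1 and Obox8 fell from 53.8 to 0.0061 and from 192 to 3.72 in mean FPKM. The single member that rose was Crxos, a homeobox gene of the pluripotent embryo, from 512, 432, 395 and 442 to 2292, 2644, 4373 and 2939. With it included, the summed FPKM of the list was higher in morulae, at 3645 ± 932, than in 2-cell embryos, at 1782 ± 113.

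Promoters of 3 genes of these falling groups and of 2 from rising groups described further on are shown as examples. The stretches are the 100 bases before the annotated start on the gene's strand, from RefSeq on GRCm38.p6, for Zscan4c (chr7:11005645-11005744, plus strand), Zscan4d (chr7:11166149-11166248, minus strand), Oog3 (chr4:144162652-144162751, minus strand), the proteasome gene Psma7 (chr2:180042465-180042564, minus strand) and the mitochondrial ribosome gene Mrpl22 (chr11:58171564-58171663, plus strand). Capitals mark TATAAA on the gene's strand and, on either strand, the letters CCAAT as well as GGGCGG or also CCGGAAG.
Zscan4c: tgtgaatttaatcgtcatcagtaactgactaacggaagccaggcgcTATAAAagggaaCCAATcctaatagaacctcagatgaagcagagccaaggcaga
Zscan4d: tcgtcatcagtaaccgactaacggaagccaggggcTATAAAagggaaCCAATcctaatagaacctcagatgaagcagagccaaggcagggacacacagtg
Oog3: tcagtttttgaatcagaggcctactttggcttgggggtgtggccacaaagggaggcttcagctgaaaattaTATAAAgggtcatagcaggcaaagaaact
Psma7: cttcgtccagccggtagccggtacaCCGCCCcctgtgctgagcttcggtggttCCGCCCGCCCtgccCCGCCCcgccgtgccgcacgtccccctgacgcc
Mrpl22: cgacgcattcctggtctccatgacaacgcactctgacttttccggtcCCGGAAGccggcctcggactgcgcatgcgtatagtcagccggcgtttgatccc

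Both Zscan4 promoters carry TATAAA followed by CCAAT, starting 54 and 42 bases before the start in Zscan4c and 65 and 53 in Zscan4d. In Oog3 the TATAAA begins 29 bases before the start. Psma7 holds GGGCGG on the opposite strand in 4 copies, of which a pair overlaps, and Mrpl22 holds CCGGAAG. Among 16587 protein-coding genes with a promoter in the reference, 4.52% have TATAAA in these 100 bases, 21.5% CCAAT, 34.9% GGGCGG and 6.4% CCGGAAG. These 5 promoters are examples and stand for no group, and a match of letters describes the sequence and shows no bound factor.

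The largest increases fell on genes of varied function. Bhmt, which encodes betaine-homocysteine methyltransferase of methionine synthesis (chromosome 13, 93616675 to 93637961), stood at 1.77, 1.09, 3.04 and 4.55 in 2-cell embryos and 1338, 1509.7, 1439.6 and 1172 in morulae and rose by 8.64 on the log2 scale (SE 0.25, adjusted p = 6.54e-11). Fbp2, a fructose-bisphosphatase, stood at 0.48, 1.01, 0.714 and 0.693 in 2-cell embryos and 592, 649.8, 666 and 712 in morulae (chromosome 13, 62836877 to 62858422; log2 fold change 8.55, SE 0.17, adjusted p = 2.63e-11). Both were thus low in all 2-cell libraries and above 500 FPKM in all morula libraries. Ly6a, a surface antigen better known from stem cells of blood, rose from 0.41 ± 0.222 to 321 ± 81.9, and Vnn1, a pantetheinase, from 0.0511 ± 0.0108 to 159.5 ± 14.3. S100a11, a calcium-binding protein gene of epithelia, rose from 0.206 ± 0.0674 to 145 ± 18.8, Sfn, the 14-3-3 sigma gene, from 3.59 ± 1.65 to 452 ± 115 and Smpdl3a, a phosphodiesterase gene, from 0.149 ± 0.152 to 101.6 ± 14.2.

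Cytoskeletal actin mRNA was scarce at the 2-cell stage. Actb stood at 20.6, 22.2, 23.4 and 21.4 in 2-cell embryos and 826, 1023, 947 and 1053 in morulae and Actg1 at 7.53, 5.81, 9.72 and 7.36 in 2-cell embryos and 1099, 762, 729.7 and 778 in morulae. They rose by 5.38 (SE 0.17) and 6.60 (SE 0.16), so Actb cannot serve as a constant reference between these stages. Gapdh, a second common reference, stood at 24, 20.7, 37.3 and 25.4 in 2-cell embryos and 28.5, 17.6, 28.5 and 28.5 in morulae, and its groups overlapped (log2 fold change -0.05, SE 0.20, adjusted p = 0.81), with a sign that turned without morula replicate 2 (0.16).

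**Figure D2:**
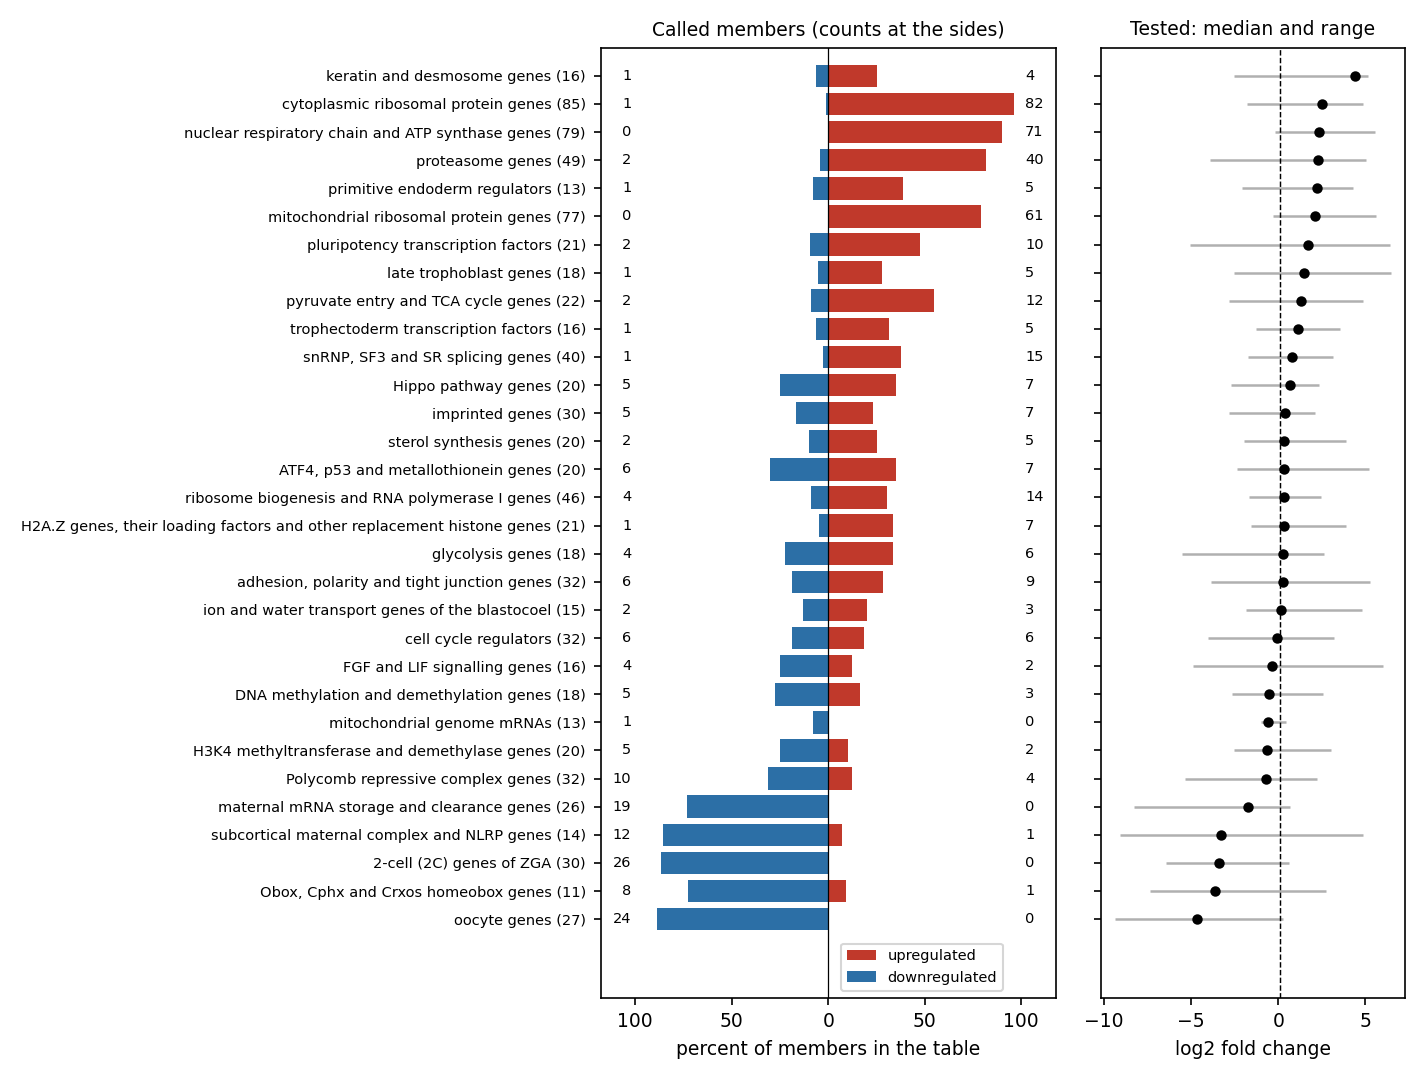
Gene lists with at least 5 tested members, with the number of members in the table in brackets. Left, percent of members upregulated (red) and downregulated (blue) from control 2-cell embryos to morulae with the counts at the sides, of which the ribosomal, respiratory chain and proteasome lists are mostly red and the oocyte and 2-cell lists mostly blue; right, median (point) and range (line) of the log2 fold change of the tested members, with the median of all 13655 genes dashed.

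Ribosomal protein genes rose nearly as a block. Of 85 cytoplasmic ribosomal protein genes, 82 rose and 1 fell, with a median of 2.49, and their summed FPKM went from 9913 ± 605 to 53296 ± 922. Rpl3 stood at 18.6, 21.6, 28 and 23.8 in 2-cell embryos and 732, 619, 696 and 724 in morulae (log2 fold change 4.86, SE 0.15, adjusted p = 1.04e-10). Rpl7 rose from 98.5 ± 21.3 to 1535 ± 136 and Rpl14 from 56.7 ± 6.6 to 774 ± 40.1. The member that fell was Rpl3l, the muscle paralog of Rpl3, from 2.9 ± 0.354 to 0.104 ± 0.08. Ribosomal genes have many processed pseudogenes, so part of their reads may be assigned elsewhere.

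Ribosome biogenesis moved less uniformly. Of 46 genes for ribosome assembly and RNA polymerase I, 14 rose and 4 fell, and the median of 0.33 became -0.04 with TPM, under which 8 rose and 8 fell. Npm1, the nucleolar histone chaperone, rose from 426 ± 118.3 to 2300.3 ± 51.4, and Wdr12, a factor of large subunit assembly, from 11.1 ± 1.22 to 60.2 ± 9.05. Imp3, a small subunit processome gene, fell from 174 ± 11.2 to 54.4 ± 10.4, and the RNA polymerase I subunit gene Polr1e from 68.6 ± 12.8 to 20.9 ± 5.2.

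Nuclear genes for mitochondrial proteins rose in large part. Of 77 mitochondrial ribosomal protein genes, all in the nucleus, 61 rose and 0 fell (limma; 0 were lower at an unadjusted p under 0.05), with a median of 2.08. Of 79 nuclear genes of the respiratory chain and ATP synthase, 71 rose and 0 fell (0 at an unadjusted p under 0.05), with a median of 2.36. Mrps31 stood at 0.0895, 0.329, 0.75 and 0.721 in 2-cell embryos and 68.3, 66.7, 70.7 and 77.6 in morulae and rose by 5.61 (SE 0.19). The complex I gene Ndufs6 rose from 1.56 ± 0.757 to 118.1 ± 19.1, and the complex III gene Uqcrb from 12.8 ± 1.53 to 456 ± 68.9. Atp5l, of the ATP synthase, stood at 139.9, 145, 184 and 25.9 in morulae, where replicate 8 was far below the others and above every 2-cell library (1.15, 4.62, 7.12 and 1.24).

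The 13 mRNAs of the mitochondrial genome did not share that rise. Of these, 0 rose and 1 fell (limma; 1 higher and 9 lower at an unadjusted p under 0.05), with a median of -0.60. With TPM 6 fell (median -0.99), with the replicate number as a block 5, in libraries numbered 1 and 2 alone 4 (-0.65) and in those with higher numbers 0 (-0.14). The member that fell was mt-Co1, at 6308, 7864, 5387 and 5075 in 2-cell embryos and 4106, 3771, 2537 and 2143 in morulae. With a log2 fold change of -1.01 (SE 0.22, adjusted p = 0.00114) it lay at the size threshold, and it was not called in libraries numbered 1 and 2 alone (-0.96), nor in those with higher numbers (-0.96), nor without 2-cell replicate 1 or 2 or without morula replicate 7 or 8 (-0.84 to -0.99). The direction of other members was unstable as well: mt-Nd1, with a log2 fold change of 0.02, turned negative with TPM (-0.37), and mt-Atp6 and mt-Atp8, at -0.55 and -0.55, turned positive in the libraries with higher numbers (0.03 and 0.07). mt-Cytb, among the most abundant mRNAs of both stages, stood at 24107, 31614, 18495 and 22148 in 2-cell embryos and 11382, 14712, 18392 and 16588 in morulae. Its log2 fold change was -0.66 (adjusted p = 0.0268), below the size threshold. In contrast, the ribosomal RNA mt-Rnr2 rose from 3393 ± 496 to 9046 ± 1739, though a library from polyadenylated RNA samples it only in part. Of 22 mitochondrial tRNA genes tested, 7 rose and 5 fell. Nuclear and mitochondrial genes were not compared by a test.

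Proteasome genes rose as well. Of 49 listed, 45 passed the filter, 40 rose and 2 fell, with a median of 2.27. Psma7, a subunit of the core particle, stood at 18, 19.5, 21.8 and 17.5 in 2-cell embryos and 484, 569, 576 and 549 in morulae and rose by 4.75 (SE 0.16, adjusted p = 2.3e-10). Psmb3 rose from 33.7 ± 4.98 to 841 ± 124 and the regulatory ATPase gene Psmc4 from 22.6 ± 7.32 to 354 ± 53.8. Both members that fell encode alternative activators of the core, Psme4 from 63.5 ± 14.5 to 3.66 ± 2.38 and Psme3 from 42.6 ± 3.15 to 19.4 ± 7.48.

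Splicing genes rose more often than they fell. Of 40 snRNP, SF3 and SR genes, 37 passed the filter, 15 rose and 1 fell, with a median of 0.82. With TPM 12 rose and 3 fell (0.46), and with quantile normalization 12 and 4 (0.13). Srsf3 rose from 27.8 ± 2.39 to 259.5 ± 23.7 and Snrpb, a core snRNP protein gene, from 68.1 ± 10.7 to 414 ± 87.8. The member that fell was Srsf4, from 7.66 ± 1.4 to 1.63 ± 0.614.

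Genes of energy metabolism were counted by pathway, and the pathways were not compared by a test. Of 22 genes of pyruvate entry and the TCA cycle, 12 rose and 2 fell, with a median of 1.29. With quantile normalization 10 rose and 2 fell (0.67). Suclg1, of succinyl-CoA ligase, stood at 2.11, 1.64, 2.1 and 3.11 in 2-cell embryos and 84.4, 86.6, 104 and 107 in morulae, and Idh2, the mitochondrial NADP-dependent isocitrate dehydrogenase, at 1.22, 0.582, 1.61 and 0.877 in 2-cell embryos and 48, 43.2, 55.6 and 50.3 in morulae. For both genes every morula library was far above every 2-cell library. The members that fell were Pcx, the pyruvate carboxylase gene, from 7.53 ± 2.15 to 0.15 ± 0.189, and Ogdh, of the oxoglutarate dehydrogenase complex, whose 2-cell values of 39.9, 50.5, 10.3 and 7.41 were uneven.

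Glycolysis genes went both ways, as did all genes tested (32.1% up and 30.1% down). Of 18 listed, 14 passed the filter, 6 rose and 4 fell, and the median of 0.29 became -0.04 with TPM, -0.07 with no filter and -0.44 among the 10 members at 5 FPKM or more in 4 libraries. Pgam1, phosphoglycerate mutase, rose from 27.4 ± 5.61 to 127 ± 27.7, and the hexokinase gene Hk2 from 0.392 ± 0.0817 to 4.55 ± 0.366. The glucose transporter gene Slc2a3 rose from 0.991 ± 1.16 to 8.88 ± 2.3. Ldhb, the lactate dehydrogenase subunit of the oocyte and early embryo, stood at 194, 197, 164 and 178 in 2-cell embryos and 2.97, 2.54, 3.84 and 2.93 in morulae. All morula libraries were thus far below all 2-cell libraries (log2 fold change -5.50, SE 0.18, adjusted p = 1.51e-10).

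Among 20 sterol synthesis genes, 17 passed the filter, 5 rose and 2 fell, with a median of 0.34, and with TPM 5 and 4 (0.05). Msmo1, a late step, rose from 6.53 ± 1.35 to 111 ± 10.8, and Fdps, farnesyl diphosphate synthase, from 19.5 ± 3.53 to 139 ± 30.6. Hmgcs1, an early step, fell from 36.8 ± 0.87 to 8.91 ± 0.987, and Sqle from 31.9 ± 2.99 to 10.3 ± 1.45.

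Pluripotency factors rose more often than they fell. Of 21 listed, 18 passed the filter, 10 rose and 2 fell, with a median of 1.73 that was 0.93 with no filter. Nanog (chromosome 6, 122707489 to 122714633) stood at 0.0849, 0.0772, 0.422 and 0.0669 in 2-cell embryos and 62.9, 103, 113 and 143 in morulae, so that a gene near 0 in every 2-cell library exceeded 60 FPKM in every morula library (log2 fold change 6.44, SE 0.27, adjusted p = 1.08e-09). Pou5f1 stood at 2.84, 2.2, 3.94 and 3.47 in 2-cell embryos and 55.3, 27.3, 23.7 and 21.5 in morulae, and the morula libraries were again all higher. Sox15 rose from 13 ± 1.23 to 209.5 ± 10, Tfcp2l1 from 1.5 ± 0.286 to 36.6 ± 12.4 and Utf1, a chromatin-bound factor, from 0.724 ± 0.248 to 33.7 ± 9.9. The members that fell were Klf17, from 152 ± 80.1 to 3.12 ± 0.489, and Prdm14, from 3.06 ± 1.02 to 0.437 ± 0.171. Sox2, a marker of the inner cells later on, was below 1 in all 8 libraries, at means of 0.381 ± 0.313 in 2-cell embryos and 0.126 ± 0.117 in morulae, and was not tested.

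**Figure D3:**
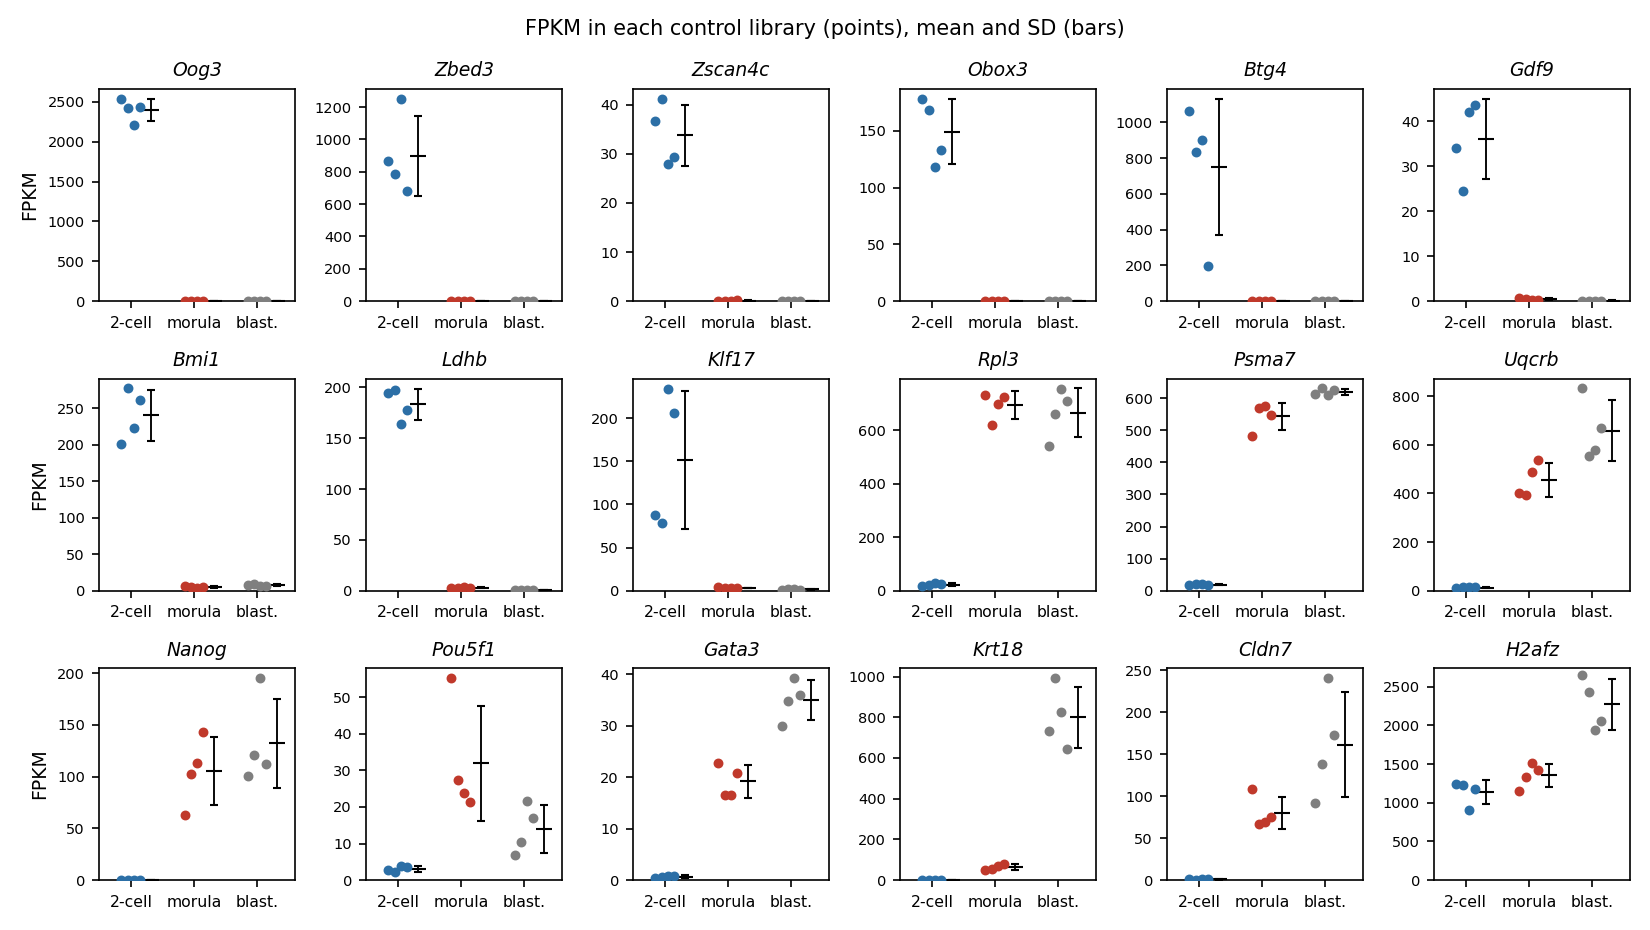
FPKM of 18 genes in each control library (points) of 2-cell embryos, morulae and blastocysts, 4 libraries each, with the mean and SD beside them; each y axis is linear from 0 and has its own range. The oocyte, 2-cell and storage genes of the top row are high only in 2-cell embryos, Rpl3, Psma7 and Uqcrb are high from the morula on, and H2afz is high in all 12 libraries.

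Some TE factors rose, and several were already present at the 2-cell stage. Of 16 TE transcription factor genes, 9 passed the filter, 5 rose and 1 fell, with a median of 1.15. In libraries numbered 1 and 2 alone 8 rose, and in those with higher numbers 4. Gata3 stood at 0.423, 0.612, 0.875 and 0.879 in 2-cell embryos and 22.7, 16.5, 16.6 and 20.9 in morulae (log2 fold change 3.54, SE 0.16, adjusted p = 2.14e-09), and Tead4, the TEAD factor upstream of the TE programme, at 2.4, 3.36, 4.04 and 3.59 in 2-cell embryos and 34.4, 25.7, 15.3 and 15.1 in morulae. Elf3, an epithelial ETS factor, rose from 4.99 ± 2.28 to 51.3 ± 8.67. Cdx2, the best known TE factor, was listed at 0 in all 2-cell libraries and stood at 1.19, 0.777, 0.926 and 0.884 in morulae, too low for the filter and so not tested. Eomes rose from 0.0914 to 1.46 in mean FPKM, and Tfap2c stood at 5.87, 7.24, 11.4 and 9.66 in 2-cell embryos and 24.6, 15.5, 15 and 15.1 in morulae, with a log2 fold change of 0.96 (adjusted p = 0.000408) just under the size threshold. Grhl1, the member that fell, went from 1.94 ± 0.709 to 0.151 ± 0.0551.

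Of 13 primitive endoderm regulators only 6 passed the filter, of which 5 rose and 1 fell. Genes such as Gata6 and Lrp2 passed it through morula libraries alone, so the filter itself favours rises here. The median of 2.24 became 0.08 over 11 members with no filter. Gata6, a driver of that lineage, stood at 0.238, 0.146, 0.269 and 0.133 in 2-cell embryos and 27.8, 9.73, 10.3 and 8.87 in morulae, with replicate 1 above the other morula libraries. Dab2, an endocytic adaptor gene, rose from 5.63 ± 4.18 to 114 ± 12.3 and its cargo receptor gene Lrp2 from 0.0546 ± 0.0256 to 7.16 ± 1.55. Gata4 fell, with 2-cell values of 10.3, 1.33, 6.41 and 1.42 and morula values of 0.0593, 0.0716, 0.0553 and 0.0496. Foxa2 and Sox7 were at 0 in all 8 libraries.

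Genes of the Hippo pathway, which reads cell position in the morula, went both ways, as did all genes tested (32.1% up and 30.1% down). Of 20 genes, 15 passed the filter, 7 rose and 5 fell, with a median of 0.70. Among the 8 members at 5 FPKM or more in 4 libraries, 1 rose and 5 fell (-1.29). Yap1, the coactivator held back by the pathway, stood at 31, 28.7, 30.7 and 25.7 in 2-cell embryos and 5.25, 3.85, 3.48 and 2.18 in morulae. Its log2 fold change of -2.72 (SE 0.19, adjusted p = 5.62e-08) stood beside that of its DNA-binding partner gene Tead4, 2.36 (SE 0.22). The YAP target gene Ccn1 rose from 0.326 ± 0.258 to 5.87 ± 1.09, the kinase gene Lats2 from 0.209 ± 0.187 to 3.8 ± 2.28 and the junctional scaffold gene Amotl2 from 0.0353 ± 0.0619 to 3.34 ± 1.46. The kinase gene Stk3 fell from 9.75 ± 2.23 to 2.4 ± 0.958.

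Among 16 FGF and LIF signalling genes, 11 passed the filter, 2 rose and 4 fell. Tdgf1, the Nodal coreceptor gene, stood at 0.0935, 0.39, 0.197 and 0.42 in 2-cell embryos and 75.3, 69, 98.1 and 88.3 in morulae (log2 fold change 5.99, SE 0.19), and the receptor gene Fgfr2 rose from 0.637 ± 0.22 to 4.22 ± 2.13. Fgf4, the ligand for that receptor, fell from 23.1 ± 8.53 to 0.815 ± 0.377, and Spry4, an inhibitor of the signal, from 35.9 ± 4.22 to 0.226 ± 0.0589.

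Epithelial genes went both ways, near the shares of all genes tested (32.1% up and 30.1% down). Of 32 adhesion, polarity and tight junction genes, 26 passed the filter, 9 rose and 6 fell, and the median of 0.29 became -0.04 with TPM, under which 6 rose and 7 fell. Cldn7 stood at 1.28, 0.642, 1.06 and 1.04 in 2-cell embryos and 108, 66.6, 68.9 and 75.1 in morulae, and Cldn4 at 0.132, 0.0246, 0.362 and 0.0872 in 2-cell embryos and 27.8, 24.1, 25 and 19.9 in morulae. Cdh1, the cadherin of compaction, rose from 2.62 ± 0.759 to 10.8 ± 2.62 (log2 fold change 1.69, SE 0.17, adjusted p = 1.66e-06), and the polarity gene Pard6a from 0.968 ± 0.458 to 5.35 ± 0.517. Its partner gene Pard3 fell from 42.6 ± 3.43 to 2.11 ± 1.17.

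Only 5 of 16 keratin and desmosome genes passed the filter, of which 4 rose and 1 fell. Krt8 and Perp passed it through morula libraries alone, so the filter itself favours rises here. The median of 4.43 became 0.10 over all 16 members with no filter. Krt8 stood at 0.155, 0.144, 0.298 and 0.41 in 2-cell embryos and 32.4, 19.3, 28.8 and 27.6 in morulae and its filament partner Krt18 at 0.745, 1.93, 2.3 and 0.691 in 2-cell embryos and 47.8, 54.7, 67.4 and 81 in morulae. In control blastocysts their means were 343 ± 102.4 and 799 ± 149. Perp, a desmosome protein gene, rose from 0.214 ± 0.148 to 44.5 ± 7.89 and Pkp4 fell from 7.76 ± 3.95 to 0.325 ± 0.0368. Of 15 ion and water transport genes for the blastocoel, 8 passed the filter, 3 rose and 2 fell, and the median of 0.17 became -0.19 with TPM, -0.11 with quantile normalization and -0.07 with no filter. The water channel gene Aqp3 stood at 0.304, 0.0294, 0.147 and 0.119 in 2-cell embryos and 44.2, 28.5, 27.5 and 31.3 in morulae, while Aqp11 fell from 5.82 ± 1.28 to 0.811 ± 0.102.

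Of 18 late trophoblast genes, 9 passed the filter, 5 rose and 1 fell, and Prl3d1 was at 0 in all 8 libraries. Their median of 1.48 became -0.02 with no filter. Cd9, a tetraspanin gene, stood at 90, 104, 108 and 119 in 2-cell embryos and 973, 1089, 1128 and 1136 in morulae. Fabp3, a fatty acid binding protein gene, rose from 0.578 ± 0.413 to 141 ± 28.2 and averaged 2773 ± 409.6 in control blastocysts.

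The H2A.Z genes themselves were not called in either direction. H2afz (chromosome 3, 137864487 to 137866922) stood at 1244, 1236, 905 and 1178 in 2-cell embryos and 1158, 1336, 1511 and 1421 in morulae, and these groups overlapped (log2 fold change 0.25, SE 0.20, adjusted p = 0.267). H2afv stood at 111, 117.5, 96.8 and 113 in 2-cell embryos and 97.3, 113, 100.0 and 92.5 in morulae (log2 fold change -0.13, SE 0.17, adjusted p = 0.484). The sign of the H2afz change turned with TPM (-0.14) and with quantile normalization (-0.51), and it was -0.12 in libraries numbered 1 and 2 against 0.71 in those with higher numbers. H2afv turned to 0.09 in the latter. Around them, of 21 H2A.Z genes, loading factors and other replacement histone genes, 20 passed the filter, 7 rose and 1 fell. Of all genes tested 32.1% rose and 30.1% fell. The list's median of 0.31 became -0.04 with TPM and -0.22 with quantile normalization. The helicase gene Ruvbl2 rose from 11.9 ± 4.5 to 184 ± 9.71, and Dmap1 and Znhit1, subunit genes of the loading complexes, from 1.79 ± 0.688 to 32.7 ± 2.57 and from 5.21 ± 1.1 to 60.5 ± 12.2. Ep400, the motor of the TIP60 complex, fell from 6.35 ± 0.785 to 1.52 ± 0.651. Srcap, the motor of the SRCAP complex, and Anp32e, the chaperone that removes H2A.Z, had log2 fold changes of -0.78 and -0.80, short of the size threshold. All their morula libraries were below all 2-cell libraries, which held for 37.2% of all genes tested.

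Polycomb genes fell more often than they rose. Of 32 members, 23 passed the filter, 4 rose and 10 fell, with a median of -0.71, and with TPM 2 rose and 12 fell (-1.11). In libraries with higher numbers 3 rose and 7 fell (-0.46), and over all 32 members with no filter the median was -0.04. Bmi1, of PRC1, stood at 201, 277, 223 and 261 in 2-cell embryos and 5.81, 5.28, 3.34 and 5 in morulae (log2 fold change -5.37, SE 0.18, adjusted p = 2.03e-10). Pcgf1, its relative in variant PRC1, fell from 273 ± 30.1 to 51.4 ± 18.8, Phf1, an accessory subunit gene of PRC2, from 9.8 ± 1.67 to 0.0695 ± 0.00797, and Cbx2 from 7.15 ± 0.531 to 0.133 ± 0.0346. The core PRC2 gene Eed rose from 73.9 ± 16.4 to 208 ± 40, and the PRC2 cofactor gene Jarid2 from 4.51 ± 2.04 to 23 ± 3.63.

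Of 20 H3K4 methyltransferase and demethylase genes, 17 passed the filter, 2 rose and 5 fell, with a median of -0.66, and with TPM 1 rose and 9 fell (-1.09). Among the 10 members at 5 FPKM or more in 4 libraries 2 rose and 3 fell (-0.28), and with no filter the median was -0.24. Kmt2c fell from 23.7 ± 1.58 to 3.42 ± 1.46 and the demethylase gene Kdm1b from 13.9 ± 1.04 to 2.27 ± 0.661, while Ash2l, a subunit gene shared by these methyltransferases, rose from 13.4 ± 5.96 to 111 ± 5.43. Of 18 DNA methylation and demethylation genes, 16 passed the filter, 3 rose and 5 fell, with a median of -0.54. With TPM 3 rose and 8 fell (-0.96), and among the 6 members at 5 FPKM or more in 4 libraries 2 rose and 1 fell (0.42). The dioxygenase genes exchanged places, Tet3 falling from 3.29 ± 0.135 to 0.0651 ± 0.0192 and Tet2 rising from 0.459 ± 0.282 to 7.86 ± 0.724. Dnmt3l, a cofactor of de novo methylation, rose from 11.6 ± 1.35 to 47.6 ± 2.94. Zfp57, which guards methylation at imprints, fell from 32.6 ± 7.47 to 4.27 ± 0.694.

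At the X-inactivation centre, Xist stood at 0.202, 0.109, 0.222 and 0.0264 in 2-cell embryos and 5.59, 5.89, 5.19 and 5.82 in morulae, and Tsix, which is transcribed across it on the opposite strand, at 0.32, 0.0854, 0.434 and 0.0999 in 2-cell embryos and 5.39, 6.59, 11.2 and 10.5 in morulae. Smart-seq2 does not mark strand, so reads where the pair overlaps cannot be told apart. Rlim, the activator of Xist, fell from 45.4 ± 4.83 to 17.7 ± 2.39. Of 30 imprinted genes, 14 passed the filter, 7 rose and 5 fell, among them Snrpn, from 38.4 ± 4.42 to 169 ± 9.73, and Mest, from 11.8 ± 3.23 to 0.769 ± 0.515. H19 and Magel2 were at 0 in all 8 libraries.

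Cell cycle regulators did not move in a common direction. Of 32 listed, 28 passed the filter, 6 rose and 6 fell, with a median of -0.09 that was 0.13 in libraries numbered 1 and 2 alone, 0.09 with the replicate block, 0.08 with the filter at 5 FPKM and 0.03 without morula replicate 1, and lower with TPM (6 up and 9 down, -0.45), with quantile normalization (5 and 8, -0.33) and in a fit of all 22 libraries (-0.24). Cdk4 rose from 13.2 ± 4.96 to 126 ± 18.3 and the cyclin gene Ccnd3 from 3.72 ± 1.68 to 24.2 ± 5.76, and Rb1, whose protein is inactivated by that pair, fell from 17.3 ± 4.96 to 0.0442 ± 0.0332. Of 20 ATF4, p53 and metallothionein genes, 16 passed the filter, 7 rose and 6 fell, and the median of 0.33 became -0.06 with TPM, -0.40 with quantile normalization and -0.17 with no filter. The chaperone gene Hspa8 stood at 81.5, 80.1, 77.8 and 73.8 in 2-cell embryos and 2177, 1976, 3839 and 4770.5 in morulae, and Bax, a killer of the BCL2 family, rose from 9.74 ± 3.04 to 70.9 ± 15.9. Sesn2 fell from 10.7 ± 2.17 to 1.55 ± 1.29.

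Among protein-coding genes, the 3079 upregulated had a median exonic length of 3098 bases and a GC content of 50.1%, the 2931 downregulated 4586 bases and 47%, and the 3961 not called 4338 bases and 48.5%. The difference in length was absent among the largest changes, with medians of 2252.5 bases for 184 genes above 4 on the log2 scale and 2277 for 230 genes below -4. Of 9971 protein-coding genes as a whole 30.9% rose and 29.4% fell, a split that moved to 2748 up and 3771 down with TPM and to 2328 and 1728 of 6093 with the filter at 5 FPKM. Several large noncoding classes were uneven, while 30 snRNA genes split into 9 and 9. Of 537 lincRNA genes 86 rose and 331 fell, with a median log2 fold change of -1.32, and of 279 antisense genes 31 rose and 163 fell (-1.12), though without strand their reads cannot be told from those of the gene opposite. Of 1717 processed pseudogenes 861 rose and 267 fell, with a median of 1.01, and these share sequence with their parent genes.

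The same step was measured in H2A.Z KD embryos, which share no library with the controls. H2afz stood at FPKM of 415, 139 and 112 in KD 2-cell embryos (replicates 1, 2 and 4) and 30.3, 25.7 and 29 in KD morulae (replicates 1, 2 and 6), below every control library of the same stage. Of 12690 genes tested in the 3 against 3 libraries, 4202 (33.1%) rose and 3875 (30.5%) fell, so 63.6% changed either way. Of the 7954 control DEGs that were tested in KD embryos too, 7174 (90.2%) were called there in the same direction, which is 90.3% of the 7949 KD DEGs tested in controls, and 1 gene was called in opposite directions. In KD embryos 22 oocyte genes, 26 of the 2-cell genes and 12 of the subcortical maternal complex list fell. Controls had 24, 26 and 12. Rises were called in 82 cytoplasmic ribosomal, 70 respiratory chain and 37 proteasome genes, against 82, 71 and 40 in controls. Other lists differed more, such as cell cycle regulators, with a median of 0.34 in KD embryos against -0.09 in controls. No test compared whole lists between KD and control embryos.

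**Figure D4:**
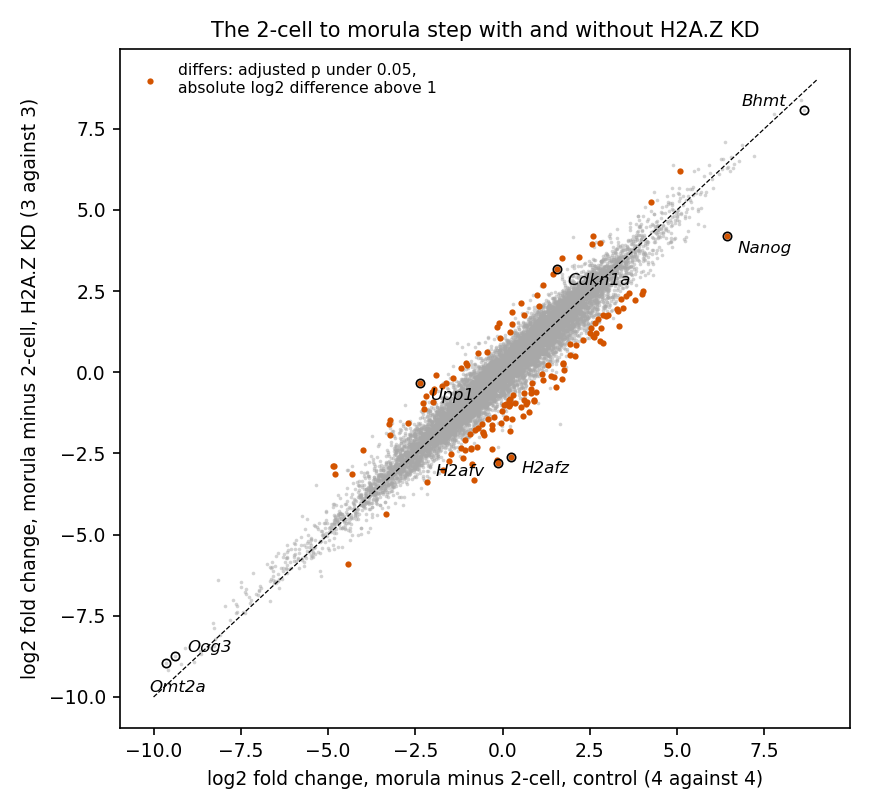
Log2 fold change from 2-cell embryo to morula in control embryos (x axis, 4 against 4 libraries) and in H2A.Z KD embryos (y axis, 3 against 3) for genes tested in both, with the dashed line where both are equal. Orange points are genes whose change differed by the interaction test, among them H2afz and H2afv, whose control values lie near 0 and whose KD values lie below -2.

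The difference between both steps was itself tested, as an interaction of stage and KD over the 14 libraries. Of 14605 genes, the KD change was higher in 56 (0.383%) and lower in 126 (0.863%). These counts were far less stable than those of the step. They ranged from 26 (without KD 2-cell replicate 1) to 78 (without control morula replicate 1) and from 52 (without KD morula replicate 1) to 203 (without control morula replicate 1), and with the replicate number as a block 2 genes were called higher and 1 lower. That 1 was H2afv, with an adjusted p of 0.0263, and the 2 higher ones, Pin4 and Obox8, named here after their values were seen, were not among the 56. The calls of H2afz, Nanog, Cdkn1a and Upp1 below were lost with the block, at adjusted p of 0.112, 0.108, 0.115 and 0.0992, with differences of -2.73, -2.10, 1.77 and 1.66. H2afz and H2afv were among the lower ones, with differences of -2.88 (adjusted p = 0.0089) and -2.71 (adjusted p = 3.02e-05) on the log2 scale. Nanog rose less in KD embryos, to 17.9, 11.6 and 32.5 in KD morulae (difference -2.15, adjusted p = 0.03). Cdkn1a, the p21 cell cycle inhibitor gene, rose more, to 128, 149.8 and 94 against 52.6, 32.4, 38.9 and 38.2 in control morulae (difference 1.62, adjusted p = 0.0148). Upp1, uridine phosphorylase, fell less (difference 1.97, adjusted p = 0.00625).

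Levels in control blastocysts, collected at 94 h, show where the morula values stand, given here side by side since both steps share the morula libraries. Oog3, Zbed3 and Zscan4c were low, at means of 0.378, 0.113 and 0.0448, while Dppa3 averaged 4733 and Ooep 36.5. Bhmt and Sfn averaged 291 and 149 in blastocysts, below their morula means of 1365 ± 147 and 452 ± 115. Fabp3, Krt18 and Gata3 averaged 2773, 799 and 35, above their morula means.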

How the data were processed

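The members and the gene lists were chosen with earlier results of these data known. The deposited FPKM were made by the authors, who aligned paired reads with STAR and quantified genes with StringTie 2.1.4. The authors' own DEG calls used DESeq2 1.30.1 on counts from featureCounts 1.6.2, which were not available here. Libraries were assigned to groups by their titles, and no value column was left without a sample.

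FPKM were divided by a median-of-ratios factor per library (0.955 to 1.18 over the 8 libraries), 1 was added and log2 was taken. R 4.3.3 with limma 3.58.1 (lmFit, then eBayes with trend) compared the stages without covariates, with Benjamini-Hochberg adjustment over the genes tested, and the interaction with KD was fitted over 14 libraries. On simulated data where 200 of 13655 genes had a true log2 change of 2, 99% of them were recovered with 3 false calls, and smaller changes were not simulated. Values were drawn as independent and normal, the changed genes had a 2-cell mean above 2 on the log2 scale, and scaling was left out. In the data 62.2% of genes were called, so the simulation does not give the accuracy of these calls. Measures per library used exact permutation tests over 70 splits. Positions and lengths came from GENCODE vM21 on GRCm38. Tables were read with Python 3.11.15, numpy 2.4.6, pandas 2.3.3 and scipy 1.17.1, and matplotlib 3.10.9 drew the figures.

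Genes were named by a rule: the 10 largest increases and decreases among protein-coding DEGs whose groups do not overlap, the most changed DEGs of each list (4 in its main direction, 2 in the other), the 5 most abundant genes of each stage, a set of lineage, maternal and reference genes, and the 3 largest interaction differences each way. Genes of the marker lists, those said to be at 0 in all 8 libraries, Sp110, Pin4 and Mrpl22 lie outside it and were chosen after their values were seen. Alternatives covered scaling, pseudocount, filter, replicate block, range of replicate numbers and each library left out. Depth per library is known only in relative units and gives no interval for a value.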

Additional observations from a re-analysis of the deposited data

Results flagged for a closer look

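In 25 cases a library lay far from the other 3 of its group by Dixon's criterion for 4 samples at 95%, out of 358 groups looked at, and chance alone marks about 1 in 20 groups. FPKM of that library are given with the lowest and highest of the others. In control morula replicate 1 this held for Ly6a (443.6 against 276.2 to 286.7), Actg1 (1099.3 against 729.7 to 778.4), Gata6 (27.8 against 8.871 to 10.35), Etv5 (3.301 against 1.305 to 1.507), Pard3 (3.852 against 1.393 to 1.71), Pkp2 (6.974 against 3.569 to 4.008), Ebp (35.78 against 49.54 to 51.61), Kdm1b (3.248 against 1.835 to 2.067), Bax (94.59 against 61.09 to 65.01) and Tfap2c (24.64 against 15 to 15.47). In control morula replicate 8 this held for Rfpl4b (1.765 against 0.5312 to 0.7286), Stk3 (3.822 against 1.79 to 2.065) and Asns (21.63 against 17.19 to 17.94). In control 2-cell replicate 5 this held for Pard3 (37.49 against 44.06 to 44.57), Wdr12 (9.305 against 11.51 to 11.95) and Srsf3 (31.37 against 26.24 to 26.85). In control 2-cell replicate 4 this held for Slc2a3 (2.708 against 0.216 to 0.6368), Ccnd3 (6.217 against 2.655 to 3.074) and Ooep (12.02 against 7.483 to 8.222). In control 2-cell replicate 2 this held for Fxyd4 (2.144 against 0.7074 to 0.8692) and mt-Nd1 (8756.5 against 7110 to 7388.6). In control morula replicate 2 this held for Mrps18a (144.8 against 110.6 to 115.7) and Gapdh (17.65 against 28.5 to 28.52). In control 2-cell replicate 1 this held for Jarid2 (1.458 against 5.421 to 5.747) and Nlrp5 (8.886 against 12.07 to 12.31). Morula replicate 1 was the library most often apart.

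In 9 of the genes covered by the naming rule, out of 210 among all genes, the change from 2-cell embryo to morula differed between KD and control embryos by the limma interaction (adjusted p under 0.05). The differences on the log2 scale, with SE and adjusted p in brackets, were -2.1479 for Nanog (0.4532, 0.03), 1.6161 for Cdkn1a (0.2932, 0.0148), 1.1778 for Ccng1 (0.2758, 0.0444), -2.8822 for H2afz (0.4796, 0.0089), -2.7094 for H2afv (0.2228, 3.02e-05), -2.7758 for Magea8 (0.4033, 0.00453), 1.9734 for Upp1 (0.3094, 0.00625), 1.9286 for Gm4565 (0.4475, 0.0436) and 1.9112 for Gm4513 (0.446, 0.0441). The rule takes the 3 largest called differences each way, so H2afz, H2afv, Magea8, Upp1, Gm4565 and Gm4513 were chosen for this difference, and H2afz and H2afv also as the genes of the protein that was depleted. With the replicate number as a block, H2afv alone of these 9 was called.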

How the results depend on the processing

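Results were recomputed with other scalings, pseudocounts, filters and sets of libraries, and the cause of a difference was not tested unless stated. More genes rose than fell in the step except with TPM (4044 and 5181) and in a fit of all 22 libraries (3993 and 4441). With FPKM of at least 5 in 4 libraries, where fewer genes are tested, 3068 rose and 2191 fell, and 1676 and 671 in KD embryos. The interaction moved most: 54 higher and 204 lower with FPKM as deposited, 39 and 82 with the filter at 5, and 2 and 1 with the replicate number as a block. Leaving out 1 library gave 26 to 78 higher and 52 to 203 lower. The difference in genes at 1 FPKM or more was -182.5 at a threshold of 5, and -1318.8 to -1058.7 without 1 library, with the groups fully apart each time and an exact p over 35 splits of 0.0571 without 2-cell replicate 4 or 5 and 0.0286 otherwise. Whether equal numbers pair control 2-cell with morula libraries is not stated, and 2 such pairs are too few to show it. Residual correlations were -0.0465 to 0.0353 for these 2 pairs with the same number and -0.13 to 0.1291 for 14 others. Pairing of control with KD libraries was not checked. These genes turned sign, with none called a DEG in the main fit. H2afz went to -0.1401 (TPM), -0.5077 (quantile), -0.1777 (block) and -0.1182 (numbers 1 and 2), and H2afv to 0.0874 (higher numbers). Dppa3 went to -0.1123 (TPM), -0.4363 (block) and -0.3767 (numbers 1 and 2). Gapdh went to 0.0957 (higher numbers), and ranged from -0.172 to 0.1633 without 1 library. mt-Nd1 went to -0.3681 (TPM), -0.2142 (quantile), -0.1487 (block), -0.0891 (numbers 1 and 2) and -0.1616 (fit of all 22 libraries), and ranged from -0.0579 to 0.0855 without 1 library. From -0.5458, -0.5511 and -0.5448 (adjusted p = 0.041, 0.0463 and 0.0414), mt-Atp6 went to 0.0095 (quantile) and 0.0262 (higher numbers), mt-Atp8 to 0.0675 (higher numbers), and the mitochondrial pseudogene Gm10925 to 0.0494 (quantile) and 0.029 (higher numbers).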

Other observations

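Families of gene symbols were looked at after their values were seen, and the Usp family shares members such as Usp17lb with the 2-cell list. Counts are of members that passed the filter. Of 8 Cct chaperonin genes 6 rose and 1 fell (median log2 fold change 2.08). Of 15 vacuolar ATPase genes 9 rose and 0 fell by limma (median 1.25, with 1 lower at an unadjusted p under 0.05). Only 20 of 67 Hist genes passed, of which 13 rose and 0 fell by limma (median 1.43, with 2 lower at an unadjusted p under 0.05). With TPM 15 Hist genes rose and 2 fell, and 8 vacuolar ATPase genes rose and 1 fell. How far libraries from polyadenylated RNA sample Hist mRNA was not tested. In contrast, 15 of 18 Fbxw genes fell (-4.39), and of 46 Usp genes 27 fell and 2 rose (-1.31), with similar copies in both families. Of 25 Kif motor genes 11 fell and 3 rose (-0.90). Of 167 snoRNA genes 94 rose and 4 fell, though libraries from polyadenylated RNA sample them only in part.

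FPKM are shares and no spike-in is stated, so RNA per embryo is unknown. The pools are of 15 embryos, so a change in the mix of cells cannot be told from a change within cells. Besides stage, the groups differ in the time since hCG injection and in part of their replicate numbers.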
